A study of Mus musculus with 6 samples.

Results

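The genes described here run the cell division cycle: 38 genes chosen by symbol, out of 31276 symbols counted in mouse brain. Their products were sorted by role into 10 genes of S phase and DNA replication, 15 of G2 and mitosis, 4 of the passage from G1 to S, 5 D cyclins and their kinase partners, and 4 brakes. Brain RNA at postnatal day 14 was compared between 3 C57BL/6 wild-type libraries (WT) and 3 C57BL/6 libraries labelled as PRMT5 knockout by olig2-cre (KO). Prmt5 encodes an arginine methyltransferase, and this Cre acts in cells that have expressed Olig2, which marks oligodendrocytes and their precursors, so most other brain cells keep the gene and still add to each library. The labels do not say which alleles carried loxP sites or whether the libraries of a group came from separate animals, and the p-values cover only the spread among these libraries, which may in part be technical.

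A cell that commits to division first makes D cyclins, which with CDK4 and CDK6 inactivate the retinoblastoma protein and free E2F factors. E2F then raises the genes of DNA replication, such as the MCM helicase subunits and the enzymes that make deoxynucleotides. A later wave, set by the B-Myb, MuvB and FoxM1 complex, brings up the mitotic cyclins, kinases and spindle proteins. In the postnatal brain the dividing cells include oligodendrocyte precursors, granule neuron precursors of the cerebellum, progenitors of the subventricular zone and dentate gyrus, and cells of vessels and meninges.

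Promoters of the replication and mitotic genes differed in the words they held, and 5 are shown because their letters carry this contrast. RefSeq promoters on GRCm38.p6 were found for 29 of the 38 genes, in windows of 300 bases that start 250 bases before the transcription start. Words were searched on both strands. For an E2F site these were TTCCCGC and the related words TTGGCGC and also TTCGCGC, together with TTGCCGC. For the cell cycle homology region (CHR) that MuvB binds they were TTTGAA and its variant TTCGAA, and for the box that NF-Y binds CCAAT. On the opposite strand TTGGCGC can share letters with a CCAAT box. An E2F word was in 7 of 10 promoters of the S phase genes (Mcm7 has 2) and in 3 of 12 promoters of the mitotic genes, against 9.57% of all 32851 promoters. A CHR word was in 2 of the 10 S phase and 10 of the 12 mitotic promoters, against 19.2% of all. CCAAT was in 9 and 11 of them, against 37.4%, and CHR and CCAAT were together in 2 and 10, against 7.52%. These are matches of letters, not bound sites. Only bases before the start are printed, 5′ to 3′ on the gene's strand, with matches to any of the words in capitals; the first 3 are mitotic genes and the last 2 replication genes.
Ccnb2, chr9:70421555-70421804, minus strand: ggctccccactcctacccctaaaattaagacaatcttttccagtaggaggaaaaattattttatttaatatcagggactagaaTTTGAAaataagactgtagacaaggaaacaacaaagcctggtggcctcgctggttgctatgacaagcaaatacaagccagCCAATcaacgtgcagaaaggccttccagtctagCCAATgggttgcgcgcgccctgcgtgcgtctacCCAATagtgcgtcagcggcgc
Top2a, chr11:99024190-99024439, minus strand: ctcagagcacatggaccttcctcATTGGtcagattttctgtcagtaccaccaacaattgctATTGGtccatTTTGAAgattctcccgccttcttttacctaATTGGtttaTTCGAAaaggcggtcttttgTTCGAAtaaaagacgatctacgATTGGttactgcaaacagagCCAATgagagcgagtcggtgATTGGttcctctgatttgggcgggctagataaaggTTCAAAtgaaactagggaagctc
Mki67, chr7:135716380-135716629, minus strand: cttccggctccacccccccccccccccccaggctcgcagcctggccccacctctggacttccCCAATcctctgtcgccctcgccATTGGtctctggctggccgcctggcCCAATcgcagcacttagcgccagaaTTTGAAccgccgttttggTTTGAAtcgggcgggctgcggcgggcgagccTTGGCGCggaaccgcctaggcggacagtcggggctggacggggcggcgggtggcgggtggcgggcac
Mcm5, chr8:75109259-75109508, plus strand: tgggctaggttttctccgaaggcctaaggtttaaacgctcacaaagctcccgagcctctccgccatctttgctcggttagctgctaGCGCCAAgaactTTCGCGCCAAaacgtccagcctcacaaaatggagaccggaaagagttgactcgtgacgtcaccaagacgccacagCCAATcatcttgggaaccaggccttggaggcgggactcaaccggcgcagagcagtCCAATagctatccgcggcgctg
Mcm6, chr1:128359706-128359955, minus strand: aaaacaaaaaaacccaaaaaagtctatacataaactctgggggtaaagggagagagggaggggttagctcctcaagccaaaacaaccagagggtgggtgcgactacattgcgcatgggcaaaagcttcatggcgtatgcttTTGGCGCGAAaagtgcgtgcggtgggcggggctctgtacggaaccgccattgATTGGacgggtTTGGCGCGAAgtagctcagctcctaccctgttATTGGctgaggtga

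Top2a, which encodes the topoisomerase that untangles chromosomes, held 4 CHR and 6 CCAAT words and no E2F word. Ccnb2, a B-type cyclin gene, held 3 CCAAT words and 2 CHR words, of which 1 lies past the start and is not printed. Mki67, the gene of the Ki-67 antigen, held words of all 3 kinds. Mcm5 and Mcm6, subunits of the replicative helicase, held 3 and 5 E2F words and no CHR word; the longer capital runs in them are E2F words that share letters.

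The libraries held 15089140 to 16872925 counts. Prmt5 itself stood at 91.0 ± 0.751 CPM (a gene's count scaled by its library's total) in WT and 72.7 ± 7.66 in KO (SD, n = 3), with all KO libraries below all WT libraries and an edgeR adjusted p of 0.232, or 0.0379 when replicate numbers were blocked. WT 1, KO 1 and KO 3 held cerebellar transcripts: Gabra6, of granule neurons, stood at 63.8, 80.0 and 22.1 CPM there and at 0 in WT 2, WT 3 and KO 2. High Xist marked WT 2, KO 1 and KO 2 as from females. Longer genes lay lower in KO 3, where the deviation from the mean of all libraries correlated with log2 exon length at -0.305 across genes, against -0.0879 to 0.155 in the other libraries; genes are not independent replicates.

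None of the cell cycle genes passed the test between KO and WT, but most had higher values in KO. Of 38 genes 37 had enough counts to be tested, with 8 to 1209 counts in a library. With edgeR and p-values adjusted over 16592 genes, 0 of the 37 had an adjusted p under 0.05, against a background of 1.2% of all genes tested (0.241% higher and 0.958% lower in KO). DESeq2 called 0, against 1.9% of all genes, limma-voom called 0, against 1.06%, and the replicate block called 0, where it called 3.41% of all genes. At an unadjusted p under 0.05 there were 7, against 9.67% of all genes; all 7 were higher in KO (4.4% of all genes) and 0 lower (5.27%). The log2 fold change of KO over WT was above 0 for 30 of the 37, against 52.3% of all genes, and its median was 0.28, against 0.01. For 8 of them every KO library lay above every WT library, against 8.02% of all genes, and for 0 of them below, against 7.99% (16% in either direction). Since these genes tend to vary together between libraries, the counts describe these 6 libraries.

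**Figure D1:**
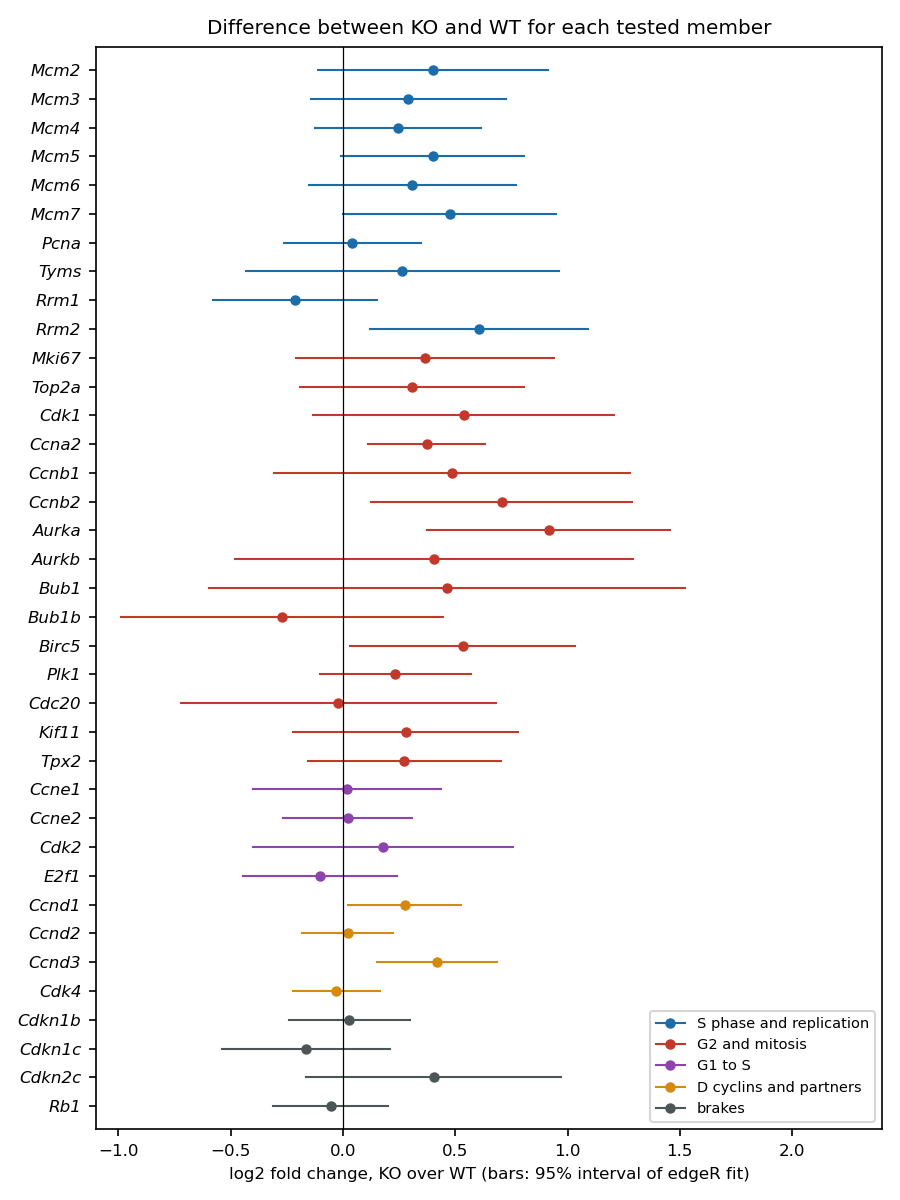
Log2 fold change of KO over WT (points) with its 95% interval from the edgeR fit (bars) for the 37 tested genes, coloured by role. Most points of the S phase and mitotic genes lie right of 0, from -0.27 to 0.92, while those of the G1 to S genes and brakes are spread on both sides of it.

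The mitotic genes had a median log2 fold change of 0.37, with 13 of 15 above 0 and 4 at an unadjusted p under 0.05. Aurka encodes the Aurora A kinase, which matures centrosomes and builds the spindle (chr2:172356190-172370535 on mm10). It stood at 2.31, 1.82 and 2.11 CPM in WT 1 to 3 and at 3.65, 4.47 and 3.68 CPM in KO 1 to 3. All KO libraries were above all WT libraries, and KO 2 was the highest. The fold was 1.89 (log2 0.92, SE 0.246), the largest among the 37 genes, with an edgeR adjusted p of 0.167.

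Ccnb2 encodes cyclin B2, a partner of CDK1 in mitosis. It stood at 2.50, 1.89 and 1.87 CPM in WT and 3.83, 3.47 and 2.92 CPM in KO, with no overlap (log2 fold change 0.71, SE 0.263, edgeR adjusted p = 0.393). Ccna2 encodes cyclin A2, which acts from S phase into early mitosis (chr3:36564865-36572150). Its levels of 18.2, 18.0 and 16.6 CPM in WT and 23.1, 23.6 and 21.6 CPM in KO varied little within each group and did not overlap (log2 fold change 0.37, SE 0.118, edgeR adjusted p = 0.283). Of its exon bases 12.5% are shared with Exosc9 on the opposite strand, and the strand setting of the counting is not given in the sources used here, so reads may be shared. Birc5 encodes survivin, of the chromosomal passenger complex. It stood at 3.12, 3.38 and 2.65 CPM in WT and 4.50, 4.91 and 3.81 CPM in KO, again without overlap (log2 fold change 0.53, SE 0.228, edgeR adjusted p = 0.478).

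The other mitotic genes had overlapping groups. Mki67 stood at 20.2, 15.7 and 10.8 CPM in WT and 28.1, 14.9 and 17.2 CPM in KO. KO 1 was the highest, WT 1 came next, and KO 2 lay below WT 2 (log2 fold change 0.37, SE 0.261, edgeR adjusted p = 0.690). Top2a had the same order at its top: 12.4, 11.2 and 8.78 CPM in WT and 18.4, 11.0 and 10.7 CPM in KO, so that its difference of 0.31 (SE 0.226) came mainly from KO 1. Cdk1, the kinase that drives entry into mitosis, had a value of 0.54 (SE 0.304) and Ccnb1, the other B-type cyclin, 0.49 (SE 0.359). Aurkb (0.41), the kinase of the passenger complex, and Bub1 (0.46), a kinase of the spindle checkpoint, rested on 15 to 42 and 8 to 36 counts per library, with 95% intervals of -0.48 to 1.29 and -0.60 to 1.52.

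Plk1, a kinase of mitotic entry and exit, had a value of 0.23 (SE 0.153), the spindle motor gene Kif11 0.28 (SE 0.227) and the spindle assembly factor gene Tpx2, which activates Aurora A, 0.27 (SE 0.195). Bub1b and Cdc20 were the mitotic genes with values below 0. Bub1b encodes the checkpoint protein BubR1 and had a value of -0.27 (SE 0.324). Cdc20, the activator of the anaphase-promoting complex that BubR1 holds in check, had -0.02 (SE 0.318). The 95% interval of Cdc20, -0.72 to 0.68, leaves room for a change of either sign.

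**Figure D2:**
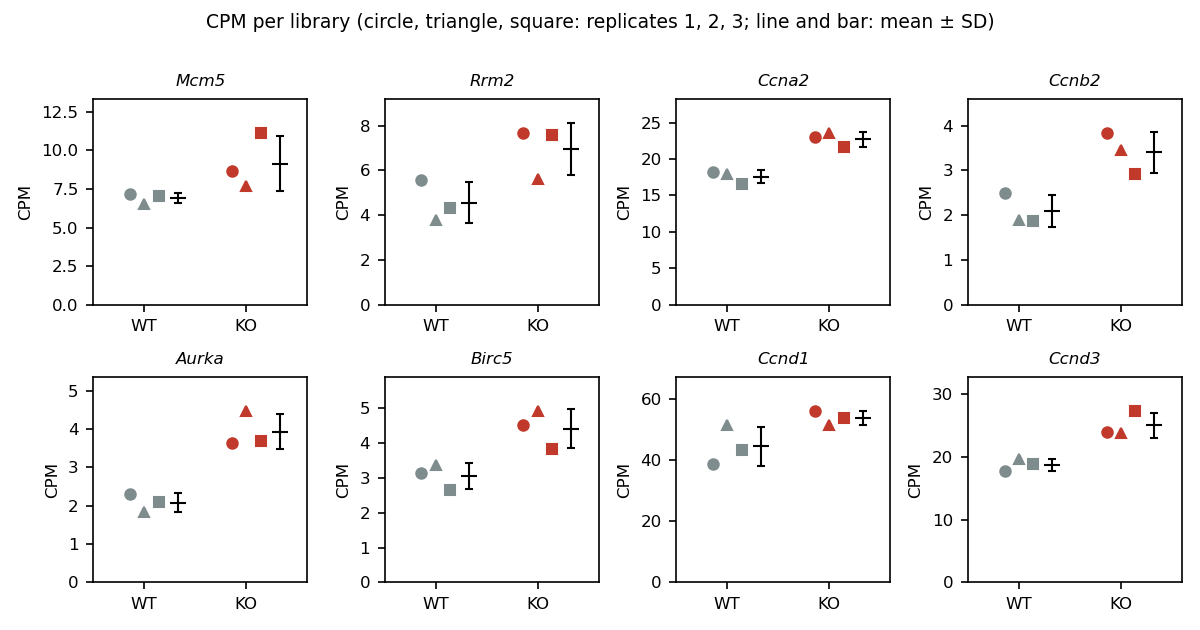
CPM in each library (symbols: replicates 1, 2 and 3 of each group) with the mean ± SD of each group (lines and bars) for the 8 genes whose groups do not overlap. In each panel all KO symbols lie above all WT symbols, by the least for Ccnd1 and Rrm2 and, relative to the level, by the most for Aurka.

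Replication genes had a median of 0.30, with 9 of 10 above 0 and 1 at an unadjusted p under 0.05. The 6 helicase subunit genes all had positive values between 0.25 (Mcm4, SE 0.168) and 0.47 (Mcm7, SE 0.216). Mcm5 stood at 7.18, 6.56 and 7.04 CPM in WT and 8.63, 7.69 and 11.1 CPM in KO (log2 fold change 0.40, SE 0.185, edgeR adjusted p = 0.524). Its groups did not overlap, and KO 3 stood apart from the other KO libraries. Mcm2 stood at 7.75, 6.69 and 4.21 CPM in WT and 9.43, 7.69 and 7.50 CPM in KO, so its groups overlapped through WT 1 (0.40, SE 0.232). Mcm7 had 12.6% of its exon bases in common with other genes, among them Cops6 and Ap4m1.

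Rrm1 and Rrm2 encode the large and small subunits of ribonucleotide reductase, which makes the deoxynucleotides for replication, and they differed in sign. Rrm2 stood at 5.56, 3.78 and 4.33 CPM in WT and 7.66, 5.61 and 7.56 CPM in KO, a fold of 1.52 (log2 0.60, SE 0.220, edgeR adjusted p = 0.378) with KO 2 above WT 1 by a small margin. Rrm1 stood at 21.7, 20.5 and 20.9 CPM in WT and 21.5, 13.5 and 19.4 CPM in KO. WT was tight, and the value of -0.21 (SE 0.166) came mainly from KO 2. Mcm3 and Mcm6 had values of 0.29 (SE 0.197) and 0.31 (SE 0.209). Pcna, the sliding clamp of the polymerases, stood at 19.7, 26.0 and 23.1 CPM in WT and 23.2, 21.5 and 26.0 CPM in KO, with a value of 0.04 and a 95% interval of -0.26 to 0.35. Tyms, which makes thymidylate, had a value of 0.26 (SE 0.316), with KO 3 below all WT libraries and the other two KO libraries above them.

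Summed over each role, KO 1 was among the highest libraries for both replication and mitosis. The 15 mitotic genes summed to 99.4, 89.5 and 72.0 CPM in WT 1 to 3 and to 129.7, 100.4 and 101.3 CPM in KO 1 to 3. The 10 replication genes summed to 104.4, 96.2 and 95.8 CPM in WT and to 121.4, 95.5 and 122.6 CPM in KO. All KO sums were above all WT sums for mitosis, while for replication KO 2 lay below every WT library. The highest replication sums were those of WT 1, KO 1 and KO 3, the libraries with cerebellar transcripts. KO holds more such libraries than WT, and the part of cerebellar content in these sums was not tested. As a mean of log2 CPM, which gives each gene equal weight, the mitotic genes stood 0.25, 0.09 and -0.34 from the WT mean in WT 1 to 3 and 0.58, 0.21 and 0.31 in KO 1 to 3, so that on this scale WT 1 lay above KO 2. The replication genes stood at 0.12, -0.07 and -0.05 in WT and 0.43, 0.06 and 0.34 in KO, where WT 1 also lay above KO 2. Within a group, the SD of each role's median log2 CPM between libraries was 0.265 for mitosis and 0.180 for replication. It is a spread of levels and does not measure the spread of the difference between the roles. The difference between the median log2 fold changes of 0.37 and 0.30 was not tested. Without WT 3 the mitotic median was 0.19 and without KO 1 it was 0.21.

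**Figure D3:**
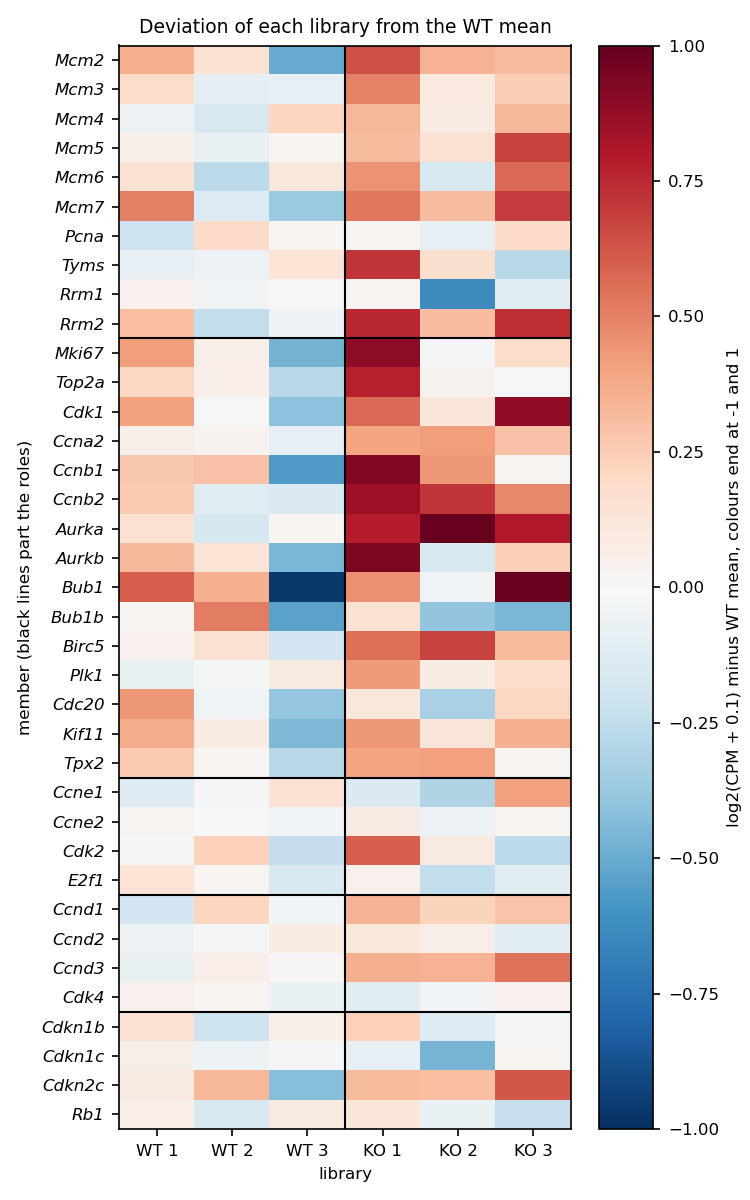
Log2(CPM + 0.1) of each tested gene in each library minus its WT mean, with black lines between roles and between WT and KO; colours end at -1 and 1. KO 1 is above the WT mean for nearly all replication and mitotic genes, WT 3 is below it for most mitotic genes, and the G1 to S block is paler in most cells.

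Genes of the G1 to S passage had values closer to 0, and the difference from the other roles was not tested; the intervals of Ccne1 and Cdk2 include the medians of the replication and mitotic genes. Ccne1 and Ccne2 encode the E cyclins that start S phase with CDK2. Their values were 0.02 (95% interval -0.40 to 0.44) and 0.02 (-0.27 to 0.31), and Ccne2 ran from 12.9 to 13.4 CPM in WT and from 12.7 to 13.99 CPM in KO. Cdk2 had a value of 0.18 (95% interval -0.40 to 0.76). E2f1, the E2F factor gene, had -0.10 (SE 0.155), between 10.0 and 12.3 CPM in WT and 9.45 and 11.6 CPM in KO. Of these 4 genes 3 had positive values, with a median of 0.02, which was 0.12 where the libraries held cerebellar transcripts and -0.11 where they did not. Ccne2 shares 17.4% of its exon bases with Ints8 on the opposite strand.

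The D cyclins differed among themselves. Ccnd3 stood at 17.7, 19.6 and 18.9 CPM in WT and 24.0, 23.8 and 27.3 CPM in KO (chr17:47505051-47599691). The groups were well apart, with a fold of 1.34 (log2 0.42, SE 0.121) and an edgeR adjusted p of 0.220. Ccnd1 stood at 38.7, 51.4 and 43.3 CPM in WT and 56.1, 51.5 and 53.8 CPM in KO, where WT 2 and KO 2 were nearly level (0.27, SE 0.114, edgeR adjusted p = 0.457). Of its exon bases 23.4% lie in the neighbouring gene annotated as LTO1 on the opposite strand. Ccnd2, the D cyclin of many neural progenitors, stood at 65.6, 68.1 and 71.9 CPM in WT and 73.5, 71.4 and 63.6 CPM in KO, a value of 0.02 with a 95% interval of -0.18 to 0.22. Cdk4 stood at 62.5, 61.6 and 57.8 CPM in WT and 56.3, 59.5 and 62.4 CPM in KO, a value of -0.03 with an interval of -0.22 to 0.16. Cdk6 had 0 to 10 counts in a library and was not tested.

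The brakes had a median of -0.01, with 2 of 4 above 0. Cdkn1b encodes p27, which holds cells out of the cycle and helps oligodendrocyte precursors to stop dividing. It stood at 62.2, 48.7 and 58.5 CPM in WT and 65.9, 51.3 and 55.7 CPM in KO (0.03, 95% interval -0.24 to 0.30), and number 2 was the lowest in each group. Cdkn1c, the gene of p57, stood at 10.7, 9.93 and 10.2 CPM in WT and 9.73, 7.43 and 10.4 CPM in KO (-0.16, SE 0.169), with 30.7% of its exon bases under an antisense transcript. Cdkn2c, which encodes the CDK4 and CDK6 inhibitor p18, had 0.40 (SE 0.258), and Rb1, the retinoblastoma gene, -0.06 (SE 0.117).

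Per kilobase of exon, WT levels of the roles overlapped, and most mitotic genes were among the lower ones. Cdk4 was the highest at 18.7 ± 0.780 CPM per kb (SD, n = 3), followed by Cdkn1b at 12.4 ± 1.53. Of the exon bases of Cdk4, 19.7% are shared with Tspan31 on the opposite strand, so its level may include reads of that gene. For Rb1 the share is 14.9%, with Lpar6 and Rcbtb2. Pcna (9.56 ± 1.32) and Ccnd1 (9.44 ± 1.36) did not differ beyond their spread, nor did Rb1 (7.90 ± 0.710) and Ccnd2 (7.28 ± 0.338). Ccne1 (5.21 ± 0.503) and Cdkn1c (5.05 ± 0.201) came next. Mitotic genes lay between 0.265 ± 0.137 (Bub1) and 4.64 ± 0.266 (Plk1), and Mki67 stood at 1.55 ± 0.465 CPM per kb. Only Plk1 and Ccna2 (4.31 ± 0.209) among the mitotic genes were above 2 CPM per kb, and both have exon bases that another gene on the opposite strand covers. The lowest of all was Cdk6 at 0.0236 ± 0.0127. Exon lengths join all exons annotated in GENCODE M21, while the counts were made on UCSC known genes. The order between genes may depend in part on this.

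Cerebellar transcripts varied widely between libraries of both groups. The 4 granule neuron markers summed to 28.3 to 395.0 CPM in WT and 34.4 to 425.7 CPM in KO. The 6 genes listed as granule precursor markers summed to 55.7 to 294.3 CPM in WT and 77.6 to 346.4 CPM in KO. Most of each sum came from Zic1 and Neurod1 (150.3 and 113.9 CPM in WT 1), so it is not a measure of dividing precursors. Of the 6 markers, Atoh1 is the factor that defines dividing granule precursors. It stood at 0.25, 0 and 0 CPM in WT and 0.97, 0 and 0.64 CPM in KO, with at most 16 counts. With a term for these transcripts in the edgeR fit the median was 0.21 for the mitotic and 0.24 for the replication genes, 27 of 37 values were above 0 (background 52.2%), and 0 of the 37 were called (background 1.38%). Among libraries with cerebellar transcripts (KO 1 and 3 against WT 1) the mitotic median was 0.28 and the replication median 0.34, with 0 of 37 called (background 0.942%). Among those without (KO 2 against WT 2 and 3) they were 0.30 and 0.15. Values were above 0 in both comparisons for 23 of 37 genes, against 30.6% of all genes. The comparisons share no library, but WT has a single library in the first and KO in the second. As these genes tend to vary together between libraries, the count describes these libraries and is not a replication. The 23 were made up of 11 of 15 mitotic and 7 of 10 replication genes, 1 of 4 G1 to S genes, 3 of 4 D cyclins and partners and 1 of 4 brakes. The difference between the comparisons, tested as an interaction in edgeR that was added after the data were seen, called 0 of the 37 genes and 0% of all genes at an adjusted p under 0.05. At an unadjusted p under 0.05 there were 0 of the 37, against 2.48% of all genes. A test that called nothing does not show that the comparisons agree.

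**Figure D4:**
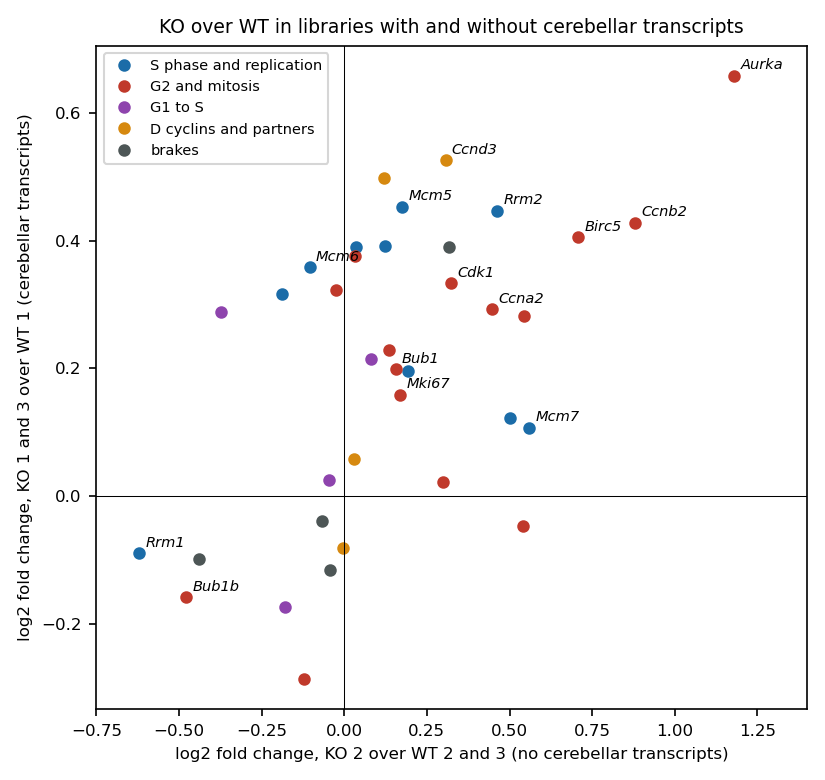
Log2 fold change of KO over WT among libraries without cerebellar transcripts (x axis) and with them (y axis) for the 37 tested genes, coloured by role. Aurka, Ccnb2 and Birc5 lie far to the upper right, Rrm1 and Bub1b lie to the lower left, and 23 genes are above 0 on both axes.

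In the comparison without cerebellar transcripts, 2 of the genes had an edgeR adjusted p under 0.05, against 7.37% of all genes there. These were Aurka (1.18, adjusted p = 0.0452, with a range of 0.0452 to 0.999961 over the alternatives) and Rrm1 (-0.62, adjusted p = 0.0238, range 0.0238 to 0.999961). KO has a single library in it, which is assumed to vary like the others.

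Markers of other dividing or neighbouring cells were set beside these values. All 8 markers of myelinating oligodendrocytes fell at an edgeR adjusted p under 0.05, their median on the log2 scale being -2.65. WT libraries held 8341.6 ± 1481.5 CPM of them in sum, KO libraries 1302.9 ± 520.5 (SD, n = 3). The 10 markers of oligodendrocyte precursors were all lower in value, and their sum was 820.4 to 875.4 CPM in WT and 374.2 to 382.2 CPM in KO. Of these 10 genes 5 fell (Pdgfra, Olig1, Olig2, Sox10 and Gpr17). Most of the lower sum came from Gpr17, of committed precursors (285.0 to 60.3 CPM), and from Sox10 (105.4 to 29.2 CPM) and Olig1 (167.6 to 101.9 CPM), which the whole lineage expresses. Cspg4, Lhfpl3, C1ql1, Matn4 and Cacng4 were not called, with values from -0.51 to -0.08. Pdgfra, the growth factor receptor of these cells, fell from 90.8 ± 1.83 to 52.1 ± 3.43 CPM (SD, n = 3; log2 fold change -0.80, edgeR adjusted p = 0.000996). In bulk tissue, fewer cells of a type and less RNA per cell cannot be told apart. Of 8 meningeal fibroblast markers 5 rose (Col3a1, Lum, Col1a1, Col1a2 and Slc6a13). Dcn (0.65), Ogn (-0.09) and Fmod (-0.09) were not called. The sum of all 8 was 134.7 to 147.8 CPM in WT and 231.3 to 328.0 CPM in KO. Forebrain progenitor markers had a median of 0.33, with 8 of 10 above 0 and 0 called. The replicate block called 2 of them (background 3.41%). Among libraries without cerebellar transcripts, where KO has a single library, their median was 0.49. Among those with cerebellar transcripts, where WT has a single library, it was 0.25. They summed to 200.6 to 253.4 CPM in WT and 225.1 to 291.6 CPM in KO. Among them Eomes, of intermediate progenitors, stood at 6.56, 2.298 and 1.203 CPM in WT and 10.5, 9.58 and 5.97 CPM in KO (log2 fold change 1.37, SE 0.469, edgeR adjusted p = 0.328, and 0.00111 with the replicate block). The other gene that the block called was Igfbpl1, a gene of immature neurons, with a WT level of 6.56 ± 3.80 CPM against 11.4 ± 1.90 in KO (0.80, SE 0.330, edgeR adjusted p = 0.457, and 0.0283 with the block). Among libraries without cerebellar transcripts the values were 2.46 for Eomes and 1.07 for Igfbpl1, against 0.32 and 0.19 among those with them. Endothelial markers (138.5 to 145.3 CPM in WT, 125.9 to 151.9 in KO) and microglial markers (298.4 to 371.8 and 333.3 to 378.1) overlapped, with medians of -0.03 and 0.06. The part of any of these cells in the cell cycle values was not tested.

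The wider pathway was described with 112 further genes, listed by role with earlier results of these data known. Of 110 tested, 0 were called by edgeR (background 1.2%), 1 by DESeq2 (background 1.9%) and 0 by limma-voom (background 1.06%). At an unadjusted p under 0.05 there were 9, a share below the 9.67% of all genes; 8 of them were higher in KO. Of 46 other mitotic genes 41 had positive values, against 52.3% of all genes, with a median of 0.32. Of 40 other replication genes 31 did, with a median of 0.23, and of 24 G1 regulators and brakes 14, with a median of 0.00. Cdca3, which helps degrade the mitotic brake Wee1, stood at 3.69, 3.78 and 1.62 CPM in WT and 5.78, 5.54 and 4.96 CPM in KO (0.84, SE 0.299). Kif22, a chromosome motor gene, had a value of 0.54 (SE 0.204).

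Among replication genes, Uhrf1, which keeps DNA methylation in place after replication, had a value of 0.85 (SE 0.311). It was not called by the edgeR fit (adjusted p = 0.380) and was with the replicate block (adjusted p = 0.0365, background 3.41%, range 0.0365 to 0.999961 over the alternatives). Dut, which clears dUTP, had 0.35 (SE 0.126) and Tipin, of the fork protection complex, 0.45 (SE 0.166).

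Anln and Cdkn1a stood apart in the wider pathway. Anln encodes anillin, a scaffold of the cleavage furrow that is also a septin partner in myelin. It stood at 14.6, 7.43 and 10.9 CPM in WT and 6.20, 6.93 and 5.21 CPM in KO, opposite in sign to most mitotic genes and the same as the myelin markers above (-0.84, SE 0.241). The edgeR fit gave an adjusted p of 0.212, and blocking the replicate number 0.0304 (range 0.00637 to 0.517 over the alternatives). Cdkn1a encodes p21, the CDK inhibitor that p53 induces. It stood at 23.9, 21.6 and 22.1 CPM in WT and 33.2, 32.1 and 30.0 CPM in KO (log2 fold change 0.50, SE 0.112). The groups were far apart relative to their spread, and the adjusted p was 0.0777 by edgeR, 0.0153 with the replicate block and 0.0242 by DESeq2 (range 0.00709 to 0.999961 over the alternatives). Of other regulators, E2f8, a repressor of E2F genes, had -0.86 (SE 0.404) and Lin54, the MuvB subunit that binds CHR, -0.29 (SE 0.165).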

How the data were processed

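The authors deposited gene-level exon counts for UCSC known genes and a normalized table, which was not used. The submitters' processing notes name mm10, DESeq2, featureCounts 1.5.0, STAR 2.3.0e, Trimmomatic 0.32 and FastQC 0.11.2; strand and multimapping settings are not given in the sources used here. Trizol RNA went into Illumina TruSeq mRNA libraries, per the labels' protocols.

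Genes were filtered with filterByExpr and tested with edgeR 4.0.16 in R 4.3.3 (TMM scaling, quasi-likelihood, 4 residual degrees of freedom, Benjamini-Hochberg adjustment over 16592 genes, called under 0.05), after checks on simulated data. CPM uses TMM-scaled totals. SE is the log2 fold change over the root of its F statistic, and intervals are 95%. Positions and exon lengths are from GENCODE M21 on mm10, which held 22517 of 31276 symbols; promoters are from RefSeq.

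All 38 genes are named by rule, with values in each library where groups did not overlap, the unadjusted p was under 0.05 or a gene was on a set list, and for some genes chosen after their values were seen; of the wider pathway, the 3 smallest p per list and any called gene. Cdkn1a, of the wider pathway, was also a reference gene; the marker genes Eomes, Igfbpl1 and those not called were chosen after their values were seen. The genes and lists were chosen with earlier results of these data known. Deviations of same-numbered samples correlated at 0.383, 0.350 and 0.200, so the numbers were treated as pairs in an added block, on the strength of the data and not the labels. WT 1 and KO 1 both held cerebellar transcripts and WT 2 and KO 2 did not, while WT 3 and KO 3 differed. The part of cerebellar content in these correlations was not tested. Because the same data chose the pairing, p-values from the block may be too small. Alternatives were 19: scaling, filters, DESeq2 1.42.0, limma-voom (limma 3.58.1), the block, terms for cerebellar transcripts (Gabra6 above 5 CPM) and sex (Xist above 5 CPM), subsets by cerebellar transcripts, exon-length offsets, and each library left out.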

Additional observations from a re-analysis of the deposited data

How the results depend on the processing

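Of the 37 tested genes 22 kept the sign of their log2 fold change under all 19 alternatives, and 35 were never under an adjusted p of 0.05. The replicate block changed no call among the 37 (0 called). The medians kept their sign, from 0.15 to 0.41 for replication and 0.19 to 0.55 for mitosis, and without each library in turn from 0.22 to 0.41 and from 0.19 to 0.55. Aurka (1.18) and Rrm1 (-0.62) were under an adjusted p of 0.05 only among libraries without cerebellar transcripts, where KO has a single library. In the wider pathway 0 became 1 with DESeq2, 3 under the block, 1 under the block and the cerebellum term together, 1 among libraries with and 2 among libraries without cerebellar transcripts; the cause was not tested.

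Sign changes, none of them called, were these log2 fold changes. Among libraries without cerebellar transcripts, Mcm6 had -0.10, Pcna -0.19, Aurkb -0.026, Ccne1 -0.37, Ccne2 -0.045 and Cdkn1b -0.067. Among libraries with cerebellar transcripts, Tpx2 had -0.048, Cdkn1b -0.039 and Lin54 0.032. When cerebellar transcripts were a term, Ccne1 had -0.035, Ccne2 -0.0059 and Cdkn1b -0.049. When that term and the replicate block were combined, Pcna had -0.018, Bub1 -0.28, Ccne1 -0.15 and Rb1 0.071. With the replicate block alone, Ccne1 had -0.0027. With exon-length offsets, Pcna had -0.030 and Ccne1 -0.047. With the sex term, Cdc20 had 0.049, Cdk2 -0.0042 and Ccnd2 -0.011. With limma-voom, Cdc20 had 0.0046 and Ccne1 -0.014. Without composition scaling, Cdc20 had 0.013 and Cdk4 0.0050. Leaving out each library in turn also gave sign changes, within these ranges: Pcna -0.058 to 0.14, Tyms -0.048 to 0.48, Bub1b -0.51 to 0.019, Cdc20 -0.21 to 0.24, Ccne1 -0.23 to 0.16, Ccne2 -0.013 to 0.058, Cdk2 -0.090 to 0.36, Ccnd2 -0.021 to 0.081, Cdk4 -0.068 to 0.0075, Cdkn1b -0.079 to 0.10 and Rb1 -0.15 to 0.027.

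Low counts limit precision at several mitotic genes: Bub1 rests on 8 to 36 counts per library and Aurka on 27 to 71.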
